A study of Homo sapiens with 11 samples.

Results

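The 10 genes described here act on the entry, activation and breakdown of decitabine and on the deoxynucleotide pools it competes with. They are the transporters SLC29A1 and SLC29A2, the kinase DCK, the deaminases CDA and DCTD, the triphosphate hydrolase SAMHD1, the ribonucleotide reductase subunits RRM1 and RRM2, and the thymidylate enzymes TYMS and DTYMK. They were chosen by gene symbol from the 58699 genes of the authors' deposited table, and all 10 were found once and were tested by the authors in every comparison. The cells were HCT116, an established human colorectal cancer line, in 4 total RNA groups of 2 libraries each. Cells in the siLuc DMSO group carried an siRNA against luciferase, the control, and received DMSO. Cells in the siLuc DAC group carried the same siRNA and received decitabine (DAC), for which the labels give 500 nM and 5 days. The siStau1 DMSO and siStau1 DAC groups carried an siRNA against Staufen1, an RNA-binding protein, under those same conditions. All 4 groups therefore hold transfected cells, and the labels do not say whether the 2 libraries of a group came from separate cultures, so the p-values may measure technical spread only.

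Decitabine is a deoxycytidine analog. It crosses the membrane through nucleoside transporters, is phosphorylated by DCK, and is carried to the triphosphate by further kinases, after which it enters DNA and traps DNA methyltransferases. CDA deaminates the free nucleoside and DCTD the monophosphate, while SAMHD1 cleaves deoxynucleoside triphosphates. Ribonucleotide reductase makes the natural deoxynucleotides, RRM1 being its large catalytic subunit and RRM2 the small subunit of cycling cells. TYMS turns dUMP into dTMP and DTYMK phosphorylates dTMP.

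The authors' deposited table gives 1 FPKM value, fragments scaled to transcript length and to the size of the library, per gene and group, with no value per library. No spread between replicates can be given, the depth is unknown, and the only test is that of the authors, a Cuffdiff p-value and its q-value. A gene is called here when that q-value is under 0.05. Log2 ratios were computed from FPKM with 0.1 added to each group. Where 4 FPKM values stand in a row, the first pair is siLuc cells with DMSO and then DAC, and the second pair is siStau1 cells likewise. STAU1, the targeted gene, was listed at 35.5 FPKM with DMSO and 33.7 with DAC in siLuc cells, and at 29.975 and 27.1 in siStau1 cells. Neither difference between siStau1 and siLuc was called for it in the authors' deposited table (q-values 0.767 and 0.685), so siStau1 below means the group so labelled. The 5 epithelial markers, EPCAM, KRT8, KRT18, KRT19 and CDH1, summed to 2593, 8191, 2146 and 5928 FPKM. The 10 markers of blood, fibroblast and endothelial cells summed to 1.82 FPKM with DMSO and 12.98 with DAC in siLuc cells, and to 1.22 and 10.2 in siStau1 cells. The highest of them was COL1A1, at 8.60 FPKM in siLuc DAC. Both sums were higher with DAC, and their part in the results was not tested. KRT8, KRT18, KRT19 and CDH1 were each higher with DAC in both arms, while EPCAM was lower, at 259, 117, 338 and 179 FPKM.

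The stretches upstream of 4 of the genes are shown because decitabine acts on CpG methylation and these genes gave the clearest contrasts: DCK and RRM1 were called lower with DAC, CDA was called higher in siStau1, and RRM2, the partner of RRM1, was not called. Each is the 250 bases before the RefSeq start on GRCh38.p14, 5′ to 3′ on the plus strand, with every CpG in capitals. The positions are chr4:70993399-70993648 for DCK, chr11:4094435-4094684 for RRM1, chr2:10122489-10122738 for RRM2 and chr1:20588847-20589096 for CDA. For RRM2 the shown stretch belongs to the first of 2 RefSeq windows.
DCK: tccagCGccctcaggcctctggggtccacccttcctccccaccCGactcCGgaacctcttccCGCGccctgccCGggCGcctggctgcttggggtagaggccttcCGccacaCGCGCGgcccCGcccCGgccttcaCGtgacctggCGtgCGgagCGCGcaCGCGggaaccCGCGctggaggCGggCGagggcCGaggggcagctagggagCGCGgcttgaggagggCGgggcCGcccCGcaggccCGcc
RRM1: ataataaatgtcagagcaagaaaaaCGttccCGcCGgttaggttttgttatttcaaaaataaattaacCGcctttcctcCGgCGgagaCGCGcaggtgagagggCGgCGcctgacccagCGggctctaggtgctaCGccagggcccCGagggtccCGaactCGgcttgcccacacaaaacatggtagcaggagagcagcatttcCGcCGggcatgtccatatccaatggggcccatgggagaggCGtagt
RRM2: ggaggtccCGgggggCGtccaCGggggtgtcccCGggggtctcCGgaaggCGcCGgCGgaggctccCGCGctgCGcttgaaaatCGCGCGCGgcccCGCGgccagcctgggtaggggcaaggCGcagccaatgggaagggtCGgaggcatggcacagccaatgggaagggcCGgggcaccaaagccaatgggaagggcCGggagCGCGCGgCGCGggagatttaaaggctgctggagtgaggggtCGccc
CDA: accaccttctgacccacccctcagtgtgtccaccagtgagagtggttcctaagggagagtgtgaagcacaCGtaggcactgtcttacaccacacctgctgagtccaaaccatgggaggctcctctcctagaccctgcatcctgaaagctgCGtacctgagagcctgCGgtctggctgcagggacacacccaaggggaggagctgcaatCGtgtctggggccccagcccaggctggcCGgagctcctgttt

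The CDA stretch holds 5 CpG, against 18 for RRM1, 27 for RRM2 and 31 for DCK. Over the full RefSeq windows, which run from 250 bases before to 50 after a start, 9 of the 10 genes were matched with 12 windows, and SLC29A2 was not. The CDA window has 8 CpG, the 11 other windows have 21 to 47, and the median of all 35116 RefSeq windows is 14. The ratio of observed to expected CpG is 0.28 for CDA and between 0.65 and 1.04 for the others. Methylation itself was not measured in the data used here. These 12 windows were also searched on both strands for 4 short motifs, whose matches did not overlap each other in any window. TTTNGCGC, an E2F-like motif, is in 1.79% of all windows and among these genes only in that of DCK, outside the stretch shown. Other forms of E2F-like motif were not searched. CCAAT is in 34.6% of all windows, with 3 matches in the RRM2 stretch shown, 2 each in DTYMK and SAMHD1, and 1 each in RRM1 and in the second RRM2 window. GGGCGG, an Sp1-like motif, is in 45.0% of all windows and occurs 3 times in DCK and in each SLC29A1 window, 2 times in DTYMK and in each DCTD window, and once in RRM1 and in the second RRM2 window. An interferon-response-like motif is in 3.57% of all windows and in 0 of these 12. A match describes the letters only.

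In siLuc cells with DMSO the 10 genes ranged from SLC29A2, at 2.72 FPKM, to RRM2, at 243 FPKM. From high to low the order in siLuc DMSO was RRM2, RRM1, TYMS, DCTD, SAMHD1, DTYMK, SLC29A1, DCK, CDA and SLC29A2. FPKM is scaled to length, but these levels are as deposited, with no centring for transcript GC content. Without a spread it cannot be said which neighbours differ. In siStau1 DMSO the order was the same, with SAMHD1, DTYMK, SLC29A1 and DCK closer together, between 36.2 and 27.9 FPKM. With DAC, CDA stood above DCK in both siRNA arms and DCK stood at rank 9, next to SLC29A2. RRM2 stayed the highest of the 10 in all 4 groups.

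**Figure D1:**
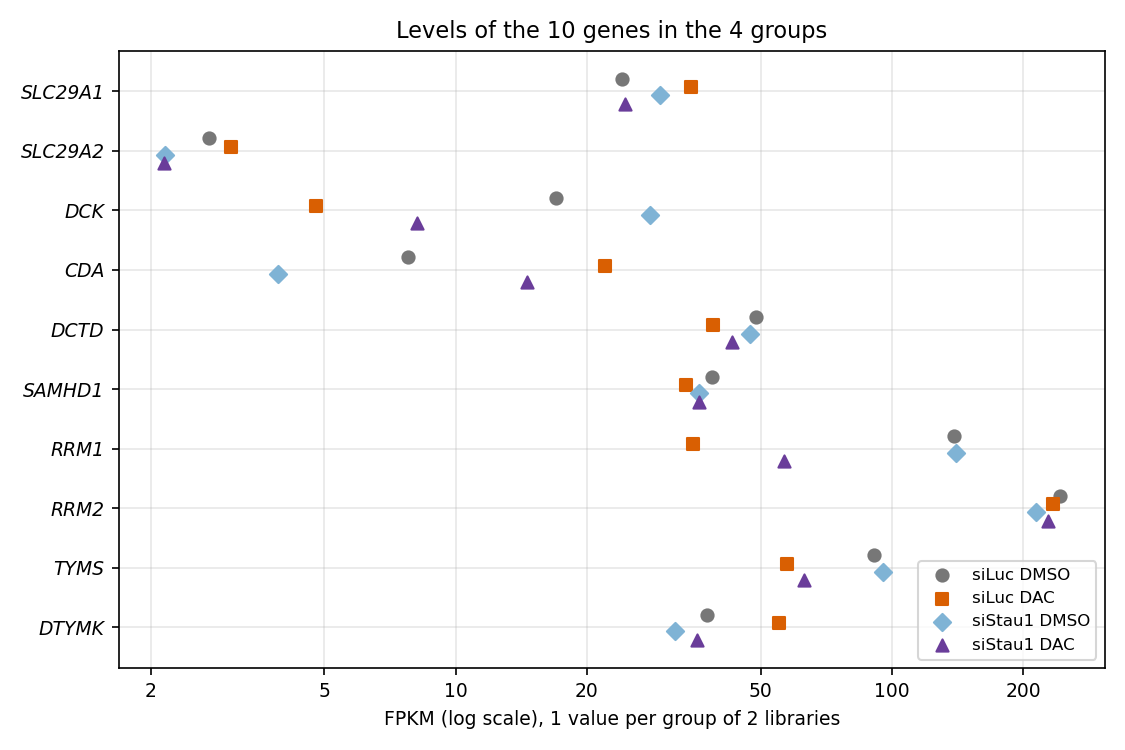
FPKM of each of the 10 genes (horizontal axis, log scale) in the 4 groups, 1 point per group of 2 libraries, with no error because the table holds no value per library. The DAC points (squares and triangles) of DCK and RRM1 lie left of their DMSO points, those of CDA lie right of them, and the 4 points of RRM2 lie together between 214 and 243 FPKM.

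In siLuc cells the response to the drug is given by DAC against DMSO. RRM1 and DCK were called lower, and the other 8 genes were not called in the authors' deposited table. Over all 17504 tested genes, 13.5% were called, 8.71% higher and 4.78% lower, and no test of the 2 calls against these shares was made. The 10 genes had a median log2 ratio of −0.12, against 0.23 for all tested genes. For genes that reach 1 FPKM in both groups, as all 10 do, the median was 0.08. In siStau1 cells, 3 of the 10 genes were called, RRM1 and DCK lower and CDA higher, against 7.46% of 16979 tested genes, 4.56% higher and 2.89% lower. The median of the 10 was −0.07 there, that of all tested genes 0.11 and that of genes that reach 1 FPKM in both groups 0.02. Both DAC comparisons use different libraries, so the 2 arms are separate measurements.

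DCK (ENSG00000156136.9, chromosome 4, 70992538 to 71030914, GRCh38) makes the first phosphorylation of decitabine. It was listed at 17.0 FPKM with DMSO and 4.801 with DAC in siLuc cells, and at 27.9 and 8.17 in siStau1 cells, so both DAC groups lay below both DMSO groups. The log2 ratio of DAC over DMSO was −1.81 in siLuc and −1.76 in siStau1. In the authors' deposited table the q-values were 0.0201 and 0.0272. MOB1B, on the same strand, shares 199 exon bases with DCK, 6.17% of DCK's exon sequence, and went from 6.41 to 5.03 FPKM in siLuc cells and from 10.3 to 6.70 in siStau1. How reads in the shared part were assigned is not given in the sources used here.

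CDA (ENSG00000158825.5, chromosome 1, 20588948 to 20618908), the deaminase that inactivates the free nucleoside, had the highest DAC log2 ratio of the 10 in both arms. It was listed at 7.77 FPKM with DMSO and 22.0 with DAC in siLuc cells, and at 3.92 and 14.6 in siStau1 cells. Each DAC value was above each DMSO value. The log2 ratio was 1.49 in siLuc and 1.87 in siStau1. Only the rise in siStau1 was called in the authors' deposited table, with a q-value of 0.0149, while that in siLuc had 0.0517. The q-values there are adjusted over all 6 comparisons, and adjusted within the siLuc comparison alone the CDA value is 0.029, so its call in control cells rests on that choice. The ratio of CDA to DCK FPKM was 0.456 with DMSO and 4.58 with DAC in siLuc cells, and 0.14 and 1.79 in siStau1 cells. It was thus under 1 in both DMSO groups and over 1 in both DAC groups. These ratios are of FPKM as deposited, with no centring for transcript GC content. Genes in the GC bin of CDA, described below, had median DAC log2 ratios of 0.76 in siLuc and 0.56 in siStau1. Those in the bin of DCK had −0.63 and −0.51, and the part of this in the ratios was not tested.

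The other deaminase, DCTD (ENSG00000129187.14, chromosome 4, 182890060 to 182917936), acts on the monophosphate and was not called. It stood at 48.9 FPKM with DMSO and 38.9 with DAC in siLuc cells, and at 47.3 and 43.0 in siStau1 cells. The log2 ratios of −0.33 and −0.14 were not called in the authors' deposited table (q-values 0.793 and 0.936). SAMHD1 (ENSG00000101347.9, chromosome 20, 36889773 to 36951901), the triphosphate hydrolase, was listed at 38.6, 33.7, 36.2 and 36.1 FPKM. Its log2 ratios of −0.20 and −0.01 were not called (q-values 0.875 and 0.994 in the authors' deposited table). SAMHD1 is known as a gene that interferon can raise in other cells. Of 6 interferon-response genes listed, which include CMPK2 and TYMP of the lists below, 3 were called higher with DAC in each arm and 0 lower. Over all tested genes 8.71% were called higher with DAC in siLuc and 4.56% in siStau1. Between the arms, 4 of the 6 were called lower in siStau1 than in siLuc with DMSO and 2 with DAC. All tested genes had 0.466% and 0.469% called lower there. Adjusted within the comparison, the counts of 4 and 2 are 1 and 0. MX1, an antiviral GTPase, had the largest change, at 3.74, 265.5, 2.08 and 117.9 FPKM, called with DAC in both arms in the authors' deposited table (q-values 0.00162). RSAD2, which makes an antiviral nucleotide from CTP, stood at 10.13, 24.1, 1.002 and 7.75 FPKM and was not called with DAC (q-values 0.348 and 0.0707 in the authors' deposited table). ISG15, a ubiquitin-like protein, stood at 1360, 4708, 320 and 2065 FPKM and was called with DAC in both arms. IFIT1 went against them in siLuc cells, at 207 FPKM with DMSO and 83.6 with DAC (q-value 0.119 in the authors' deposited table), with 79.4 and 124.8 FPKM in siStau1 cells.

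Neither equilibrative transporter was called with DAC. SLC29A1 (ENSG00000112759.17, chromosome 6, 44219505 to 44234151) was listed at 24.1 FPKM with DMSO and 34.6 with DAC in siLuc cells, and at 29.4 and 24.5 in siStau1 cells. SLC29A2 (ENSG00000174669.11, chromosome 11, 66362521 to 66372214) was listed at 2.72, 3.05, 2.16 and 2.15 FPKM. AP001107.9, on the opposite strand, shares 279 exon bases with SLC29A2, 10.3% of SLC29A2 exon sequence. It was listed at 0.76, 1.18, 2.05 and 1.14 FPKM, and its part in the SLC29A2 values was not tested. For DAC, the log2 ratios of SLC29A1 were 0.52 in siLuc and −0.26 in siStau1, and those of SLC29A2 were 0.16 and −0.01. None of these 4 was called in the authors' deposited table, where the q-values ran from 0.573 to 0.993. The concentrative transporters SLC28A1, SLC28A2 and SLC28A3, which take up nucleosides with sodium, were at most 0.0402, 0.193 and 0.0156 FPKM in any group and were not tested by the authors.

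Of the ribonucleotide reductase subunits RRM1 was called lower with DAC and RRM2 was not, and the difference between them was not tested. RRM1 (ENSG00000167325.14, chromosome 11, 4094707 to 4138876) was listed at 139 FPKM with DMSO and 34.97 with DAC in siLuc cells, and at 140.1 and 56.5 in siStau1 cells. The DAC groups were far below the DMSO groups, with log2 ratios of −1.98 and −1.31. Both falls were called in the authors' deposited table, with q-values of 0.00917 in siLuc and 0.00162 in siStau1. RRM2 (ENSG00000171848.14, chromosome 2, 10120698 to 10131419) was listed at 243, 234, 214 and 228 FPKM. Its log2 ratios of −0.05 and 0.09 were not called (q-values 0.964 and 0.934 in the authors' deposited table). The ratio of RRM2 to RRM1 FPKM was 1.75 with DMSO and 6.70 with DAC in siLuc cells, and 1.53 and 4.04 in siStau1 cells. RRM2B, the p53-induced small subunit, was listed at 22.0, 18.9, 38.8 and 32.9 FPKM and was not called with DAC (q-values 0.849 and 0.84 in the authors' deposited table). Of the listed RRM2 pseudogene copies, RRM2P3 was the highest, at 0.75 to 1.15 FPKM. AC007240.1, which shares 1077 exon bases with RRM2 on its strand, was at most 1.96 FPKM. How reads that match both RRM2 and these genes were assigned is not given in the sources used here.

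TYMS (ENSG00000176890.15, chromosome 18, 657604 to 673578), the source of dTMP, was listed at 91.2 FPKM with DMSO and 57.6 with DAC in siLuc cells, and at 95.4 and 62.8 in siStau1 cells. Of its log2 ratios, −0.66 in siLuc and −0.60 in siStau1, neither was called in the authors' deposited table (q-values 0.353 and 0.443). ENOSF1 runs on the opposite strand and shares 967 exon bases with TYMS, 39.1% of TYMS exon sequence. Its own level was 33.1 FPKM with DMSO and 12.8 with DAC in siLuc cells, and 31.3 and 13.2 in siStau1 cells. The library kit keeps strand per the labels, but whether the counting used it is not given in the sources used here, and the part of ENOSF1 in the TYMS values was not tested. DTYMK (ENSG00000168393.12, chromosome 2, 241675742 to 241686991), the next kinase, was listed at 37.7, 55.2, 31.9 and 35.8 FPKM. Its log2 ratios of 0.55 and 0.16 were not called (q-values 0.452 and 0.878 in the authors' deposited table).

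**Figure D2:**
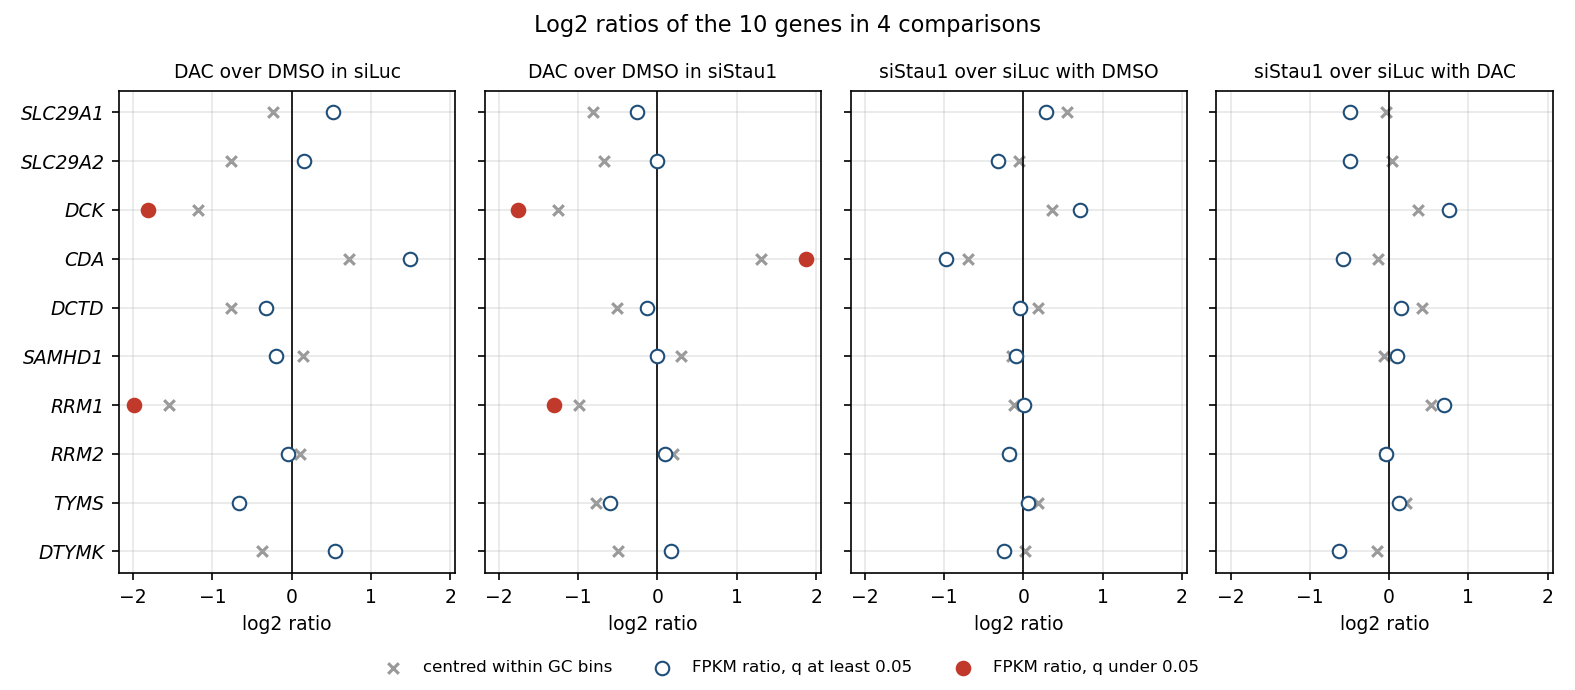
Log2 ratio of FPKM (horizontal axis) of the 10 genes in the 4 comparisons, filled red where the authors' q-value is under 0.05, open where it is not, with grey crosses for the value centred within bins of transcript GC content. Filled points are RRM1 and DCK below 0 with DAC in both siRNA arms and CDA above 0 in siStau1, and none in the 2 comparisons of siStau1 with siLuc.

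Over protein-coding genes, the median DAC log2 ratio in siLuc ran from −0.95 in the bin of lowest transcript GC content to 1.201 in the highest, and in siStau1 from −0.72 to 0.86, so each gene is also given relative to genes of like GC content. The longest DCK transcript has 38.8% GC and that of RRM1 43.5%, and genes in their GC bins had median DAC log2 ratios in siLuc of −0.63 and −0.44. Centred on these, DCK was at −1.18 in siLuc and −1.25 in siStau1, and RRM1 at −1.55 and −0.99. The CDA transcript has 57.3% GC, and genes in its bin had a median of 0.76 in siLuc and 0.56 in siStau1, which left 0.73 and 1.31 for CDA. The 3 genes thus kept their direction. SLC29A1 and DTYMK, above 0 in siLuc as deposited, came to −0.24 and −0.38 after centring, and SLC29A2 went from 0.16 to −0.77. In siStau1 SLC29A1, DTYMK and SLC29A2 were at −0.82, −0.50 and −0.68. DCTD came to −0.76 in siLuc and −0.51 in siStau1, SAMHD1 to 0.14 and 0.30, and RRM2 to 0.10 and 0.20. TYMS stayed at −0.66 in siLuc and was −0.78 in siStau1. No q-value exists for centred values.

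**Figure D3:**
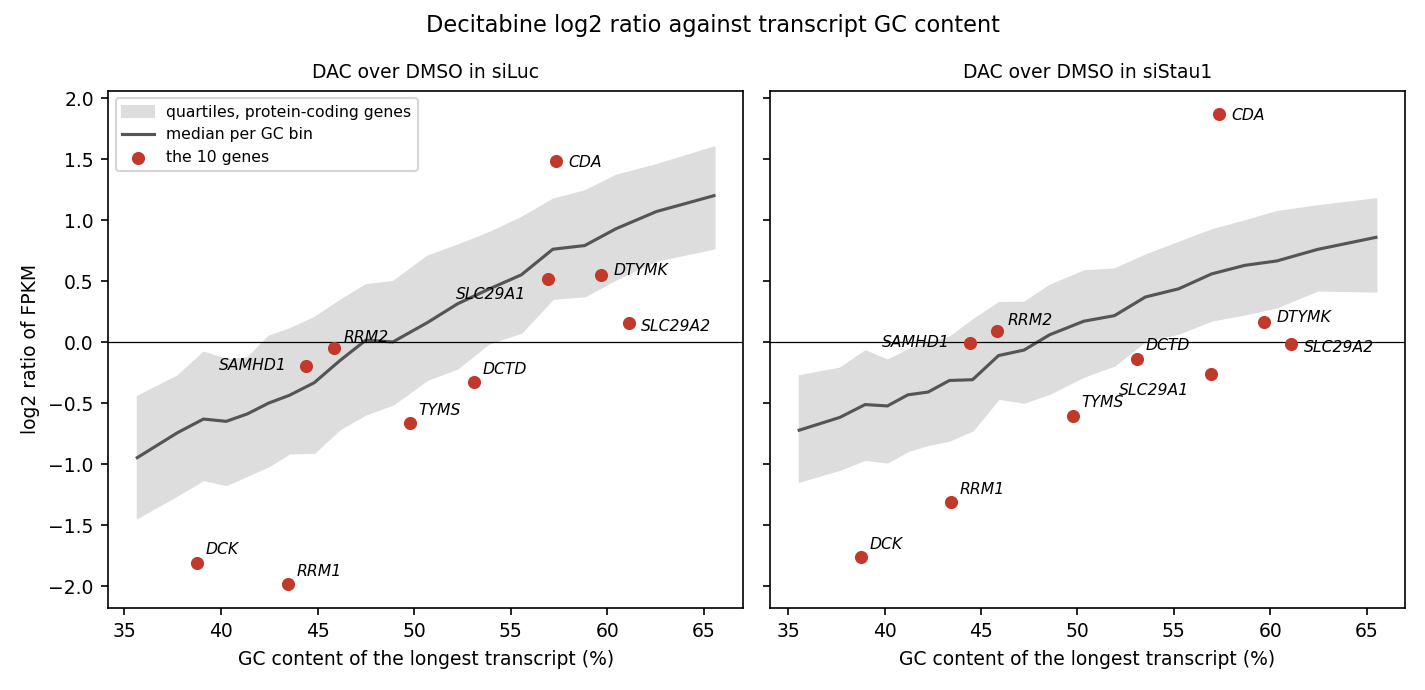
Log2 ratio of DAC over DMSO (vertical axis) against the GC content of the longest transcript in percent (horizontal axis), for siLuc on the left and siStau1 on the right. The line is the median and the grey band the quartiles of protein-coding genes that reach 1 FPKM in each of the compared groups, in 20 bins. DCK, RRM1, SLC29A2, DCTD and TYMS lie below the band in both panels, and SLC29A1 and DTYMK below it in siStau1 only. CDA alone lies above it, in both panels, and SAMHD1 and RRM2 lie within it. The median line runs from −0.95 to 1.201 in siLuc.

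With DMSO alone, 0 of the 10 genes were called between siStau1 and siLuc cells. Over all 15893 tested genes the authors' deposited table called 0.799%, with 0.333% higher and 0.466% lower, so 0 of 10 is not a result about these genes. At an unadjusted Cuffdiff p-value under 0.05 the count was also 0 of 10, against 684 of all tested. As deposited, the largest differences were those of CDA and DCK. CDA was listed at 7.77 FPKM in siLuc cells and 3.92 in siStau1, a log2 ratio of −0.97 with q-value 0.384 in the authors' deposited table. DCK was listed at 17.0 and 27.9 FPKM, a log2 ratio of 0.71 with q-value 0.455 there. The other 8 genes lay between −0.32 and 0.29. In this comparison too the median log2 ratio differed by GC content, at 0.42 in the lowest bin and −0.24 in the highest. After centring within GC bins, CDA was at −0.70, SLC29A1 at 0.56 and DCK at 0.36.

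Under DAC, siStau1 against siLuc again called 0 of the 10 genes, against 0.904% of 17263 tested genes (0.434% higher, 0.469% lower) in the authors' deposited table. RRM1 alone of the 10 had an unadjusted Cuffdiff p-value under 0.05, as did 1199 of all tested genes. With the drug it stood at 34.97 FPKM in siLuc cells and 56.5 in siStau1 cells, a log2 ratio of 0.69 with a p-value of 0.0304 and q-value 0.204 in that table. DCK, at 0.75, and DTYMK, at −0.63, were the only others beyond 0.6 in size, and their q-values were 0.567 and 0.342 in the authors' deposited table. The median log2 ratio of all tested genes was −0.14 in this comparison, and that of the 10 genes was 0.03. For genes that reach 1 FPKM in both groups it was −0.11. After centring within GC bins, RRM1 was at 0.53, DCK at 0.37 and DTYMK at −0.15.

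The difference between the arms in the DAC log2 ratio, siStau1 minus siLuc, is a description, since no test can be made without values per library. It was smallest for DCK, at 0.04, and TYMS, at 0.06. It was 0.68 for RRM1, whose fall was thus smaller in siStau1, and 0.38 for CDA. SLC29A1 had −0.78, the largest in size, and DTYMK −0.39. After centring within GC bins these were −0.075 for DCK, −0.11 for TYMS, 0.55 for RRM1, 0.58 for CDA, −0.58 for SLC29A1 and −0.12 for DTYMK.

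The authors' deposited table also sets siStau1 DAC against siLuc DMSO, where siRNA and drug both differ, and this comparison was added after the values were seen. It called 0 of the 10 genes, against 4.98% of 16909 tested genes, 4.02% higher and 0.964% lower. RRM1 went from 139 to 56.5 FPKM, a log2 ratio of −1.29 with q-value 0.143 in that table. Within siStau1 nearly the same step, from 140.1 to 56.5 FPKM, had q-value 0.00162 in the authors' deposited table. The size of the difference was thus nearly equal while the call differed, and the spread that entered the authors' test is not in the table. DCK, at a log2 ratio of −1.05, had an unadjusted Cuffdiff p-value of 0.0502 and q-value 0.28 in the authors' deposited table.

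The rest of the pathway was taken from lists of other transporters, kinases, nucleotidases and hydrolases, folate enzymes and de novo enzymes. With DAC in siLuc, 2 of 16 other kinases were called lower and 1 higher in the authors' deposited table, beside 4.78% and 8.71% of all tested genes. CMPK1, which phosphorylates the monophosphate made by DCK, went from 86.5 to 34.5 FPKM in siLuc cells (log2 ratio −1.32, q-value 0.0126 in the authors' deposited table). In siStau1 it went from 98.1 to 54.6 FPKM with q-value 0.223 there. ADK, adenosine kinase, went from 71.6 to 23.3 FPKM in siLuc cells (q-value 0.00293) and GUK1, guanylate kinase, from 76.6 to 219 FPKM (q-value 0.00162), in the authors' deposited table. ADK went from 61.2 to 38.8 FPKM in siStau1 cells and was not called (q-value 0.314 there). In siStau1, GUK1 and CMPK2 were called higher and 0 of the 16 lower, beside 4.56% and 2.89% of all tested genes. After centring within GC bins, GUK1 was at 0.58 in siLuc and 0.42 in siStau1, against 1.51 and 1.08. Centred likewise, CMPK1 was at −0.58 and ADK at −1.03 in siLuc, and both were at −0.23 in siStau1. CMPK2, a mitochondrial nucleotide kinase induced by interferon, was listed at 8.84, 22.5, 1.80 and 13.2 FPKM. It was also the only kinase called between siStau1 and siLuc, lower in siStau1 with DMSO by a log2 ratio of −2.23 with q-value 0.00415 in the authors' deposited table. Adjusted within that comparison its value is 0.0681, and the call is lost. The kinases' median with DAC was 0.38 in siLuc and 0.15 in siStau1, and turned to −0.17 and −0.25 after centring within GC bins.

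Of the 17 nucleotidases, hydrolases and catabolic enzymes, 2 were called higher and 2 lower with DAC in siLuc, and 1 higher and 0 lower in siStau1, in the authors' deposited table, where 13.5% and 7.46% of all tested genes were called. The list's median log2 ratio with DAC was 0.23 in siLuc and 0.29 in siStau1, and −0.04 and 0.04 after centring within GC bins. UPP1 and TYMP, phosphorylases that split uridine and thymidine, had the largest values. UPP1 was listed at 9.58 FPKM with DMSO and 95.9 with DAC in siLuc cells, and at 6.26 and 38.0 in siStau1 cells, and its rise was called in both arms (q-values 0.00162 in the authors' deposited table). Under DAC it was lower in siStau1 by a log2 ratio of −1.33, called with q-value 0.00293 in that table. Adjusted within that comparison the UPP1 value is 0.0909, and the call is lost. TYMP was listed at 6.37, 56.5, 3.84 and 24.7 FPKM, and its rise was called in siLuc (q-value 0.00162) and not in siStau1 (0.102) in the authors' deposited table, a difference between arms that was not tested. DUT, which hydrolyses dUTP to the dUMP used by TYMS, went from 90.2 to 26.8 FPKM in siLuc cells and from 70.1 to 40.9 in siStau1. Its q-values in the authors' deposited table were 0.00293 and 0.318. NT5C3A, a pyrimidine nucleotidase, went from 25.3 to 10.02 FPKM in siLuc cells, with q-value 0.0296 there, and was not called in siStau1 (0.172). Its log2 ratio in siLuc was −1.33, and −0.38 after centring within GC bins.

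Of 10 genes for the third reductase subunit RRM2B and the folate cycle, GGH alone was called with DAC in siLuc and 0 in siStau1, beside the same shares of all tested genes. GGH, which trims folate polyglutamates, went from 41.4 to 9.11 FPKM in siLuc cells, a log2 ratio of −2.17 with q-value 0.00415 in the authors' deposited table, and from 45.0 to 25.02 FPKM in siStau1 (q-value 0.417). Of 19 genes of de novo synthesis and purine salvage, 4 were called lower and 2 higher in siLuc, and 2 lower and 0 higher in siStau1, again beside 13.5% and 7.46%. PAICS, a purine synthesis enzyme, fell in both, from 172 to 53.4 FPKM and from 216 to 84.3 FPKM (q-values 0.00162 in the authors' deposited table). ADSS, which acts on the way to AMP, went from 29.02 to 12.8 FPKM in siLuc cells (q-value 0.0354), while IMPDH1, on the way to GMP, went from 25.1 to 73.4 and APRT, which salvages adenine, from 93.7 to 263 FPKM (q-values 0.00162 and 0.00632 in the authors' deposited table). After centring within GC bins, IMPDH1 came from 1.55 to 0.48 in siLuc and from 0.41 to −0.36 in siStau1, APRT from 1.49 to 0.42 in siLuc, and ADSS from −1.17 to −0.67. The list medians with DAC were −0.47 and −0.23 for RRM2B and folate genes, and −0.29 and −0.06 for de novo genes, in siLuc and siStau1. Of 10 other transporters 7 were tested and 0 were called in any of the 4 comparisons, with 1 at an unadjusted Cuffdiff p-value under 0.05 in each DAC comparison. ABCC10, an efflux pump, had the largest log2 ratio, 1.61 in both arms (q-values 0.0536 and 0.0683 in the authors' deposited table). Adjusted within the siLuc comparison its value is 0.0301, which would call it, and centred within GC bins its log2 ratios are 0.82 and 0.98. ABCB1, also an efflux pump, was higher by 0.92 in siStau1 DMSO than in siLuc DMSO (q-value 0.536 in the authors' deposited table).

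**Figure D4:**
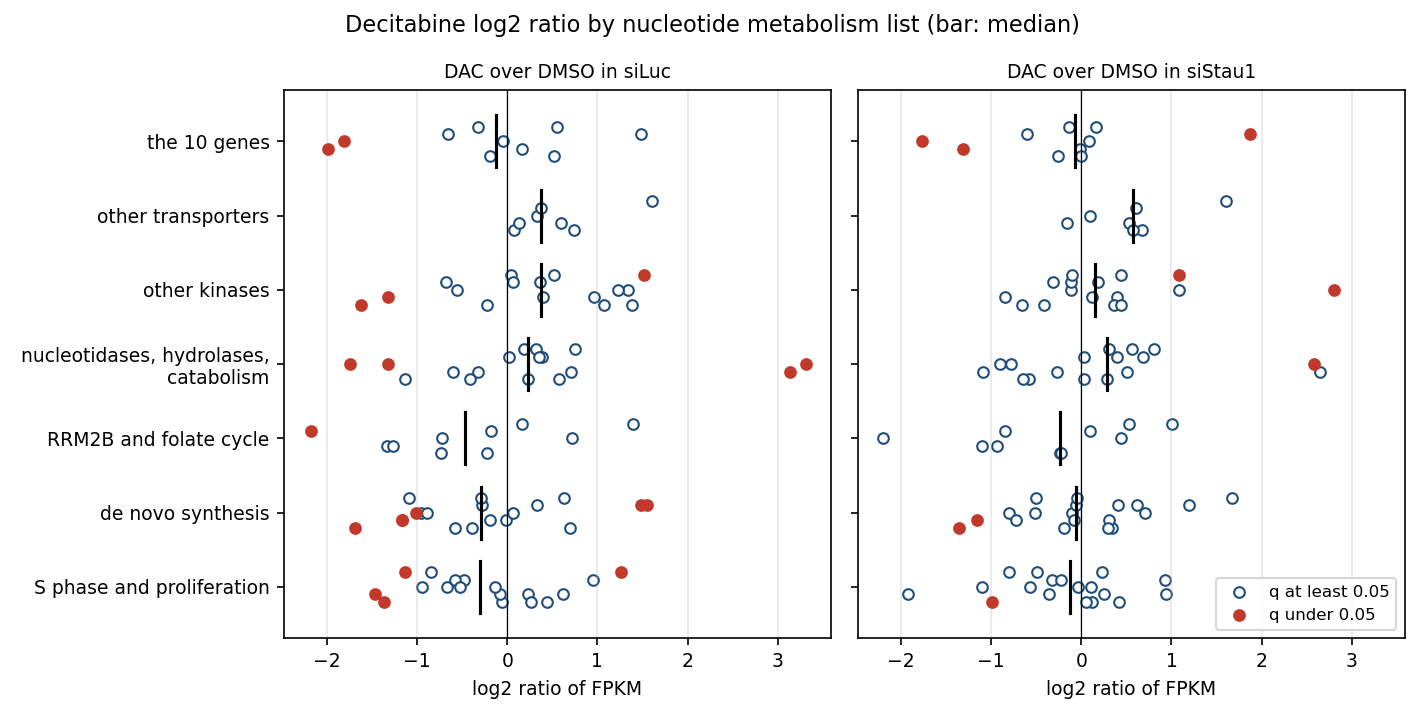
Log2 ratio of DAC over DMSO (horizontal axis) for each tested gene of the 10 and of 6 other lists, in siLuc on the left and siStau1 on the right, filled red where the authors' q-value is under 0.05, with a bar at the list's median. The 2 points beyond 3 in siLuc are UPP1 and TYMP, and called genes lie on both sides of 0 in the kinase, catabolism, de novo and S phase lists of siLuc.

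RRM1, RRM2, TYMS and DTYMK are genes of cycling cells, so S phase and proliferation markers were set beside them. Of 18 such markers, 3 were called lower and 1 higher with DAC in siLuc, and 1 lower and 0 higher in siStau1, in the authors' deposited table, where 13.5% and 7.46% of all tested genes were called. PCNA, the replication clamp, went from 334 to 129.7 FPKM in siLuc cells and from 363 to 183 in siStau1 (q-values 0.00162 and 0.0228 there). POLA1, a DNA polymerase subunit, went from 20.3 to 9.22 FPKM in siLuc cells and TOP2A, a topoisomerase, from 58.4 to 21.1 (q-values 0.0241 and 0.00162 in the authors' deposited table). In siStau1 POLA1 went from 22.6 to 12.95 FPKM and TOP2A from 149 to 39.2, neither called (q-values 0.133 and 0.0587 there). CDT1, a replication licensing factor, went from 12.96 to 31.2 FPKM in siLuc cells (q-value 0.0149 in the authors' deposited table), but its log2 ratio of 1.26 came to 0.06 after centring within GC bins. Centred likewise, TOP2A came from −1.46 to −0.83 and POLA1 from −1.13 to −0.63 in siLuc, and PCNA was at −1.03. Of the 18 markers, 12 lay below 0 and 6 above with DAC in siLuc, and 10 below and 8 above in siStau1. The list's median was −0.30 in siLuc and −0.13 in siStau1, and −0.56 and −0.41 after centring within GC bins. MKI67, a marker of cycling cells, was at 31.0, 37.2, 37.4 and 38.9 FPKM. In bulk RNA, fewer cells in S phase and less RNA per cell cannot be told apart, and the part of these markers in the RRM1 and TYMS values was not tested. Of the 10 housekeeping genes listed for reference, B2M alone was called, at 1442 FPKM with DMSO and 599 with DAC in siLuc cells (q-value 0.0214 in the authors' deposited table), and its log2 ratio of −1.27 came to −0.62 after centring.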

How the data were processed

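Total RNA of HCT116 cells was sequenced in 4 groups of 2 libraries. Per the submitters' processing notes the tools named include HISAT2 2.1.0, Cuffdiff 2.2.1 and Cuffnorm 2.2.1, with build hg38 and no role or order given. The authors deposited 1 FPKM value per gene and group with Cuffdiff p-values and q-values and a test score, per the file headers. The depth per library is unknown. A count test, a replicate block or leaving out a replicate cannot be computed from group values, and calls are therefore those of Cuffdiff. Log2 ratios, q-values adjusted within 1 comparison and centring within 20 bins of transcript GC content were computed here with Python 3.11.15, numpy 2.4.6 and pandas 2.3.3, and the functions were tested on simulated data. All 58699 gene identifiers are in GENCODE release 29, which gave positions and GC content. Group values differed between comparisons for 1 gene, which is none of those described. The members, lists and alternatives were chosen with earlier results of these data known. All 10 genes are named. Of each other list, up to 4 genes called in any comparison, or else the 2 with the largest log2 ratio, are named with their values, and ISG15, IFIT1, MKI67, RRM2B, the SLC28A genes and overlapping genes were added after their values were seen. The 3 J2 libraries were not used here.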

Additional observations from a re-analysis of the deposited data

How the results depend on the processing

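No paired analysis was possible because the table holds 1 value per group, and for the same reason leaving out single replicates was not run. A q-value limit of 0.01 left 1 member called with DAC in siLuc and 1 in siStau1, RRM1 in each, and DCK in both arms and CDA in siStau1 were then no longer called. Adjusted within the comparison, 3 members were called in siLuc, CDA being added, and 3 in siStau1. At the authors' q-value 13.5% and 7.46% of all tested genes were called with DAC. Their shares under the other adjustment are not given here, so these counts are not set against them. The 2 pseudocounts reversed only the difference between arms for DCK (−0.022 with 1 FPKM). Subtracting the median of genes that reach 1 FPKM in both groups reversed RRM2 for siStau1 over siLuc with DAC (0.072). Centring within GC bins reversed, with DAC in siLuc, SLC29A1 (−0.24), SLC29A2 (−0.77), SAMHD1 (0.14), RRM2 (0.10) and DTYMK (−0.38), and in siStau1 SAMHD1 (0.30) and DTYMK (−0.50). It reversed DCTD (0.19), RRM1 (−0.11) and DTYMK (0.018) for siStau1 over siLuc with DMSO, and SLC29A2 (0.040) and SAMHD1 (−0.062) for siStau1 over siLuc with DAC. For the difference between arms it reversed SLC29A2 (0.092), DCK (−0.075) and TYMS (−0.11). None of these reversed values had been called. Over all tested genes, a limit of 0.01 called 1395, 667, 55 and 34 in the order siLuc DAC, siStau1 DAC, siStau1 over siLuc with DMSO and siStau1 over siLuc with DAC, against 2360, 1266, 127 and 156, and adjustment within the comparison called 33 and 0 for these last 2. With at least 1 FPKM in both groups, 807 genes were called with DAC in siStau1 and 71 for siStau1 over siLuc with DMSO. The members' median with DAC came to −0.52 in siLuc and −0.59 in siStau1 after centring within GC bins, and for siStau1 over siLuc with DAC to 0.14 after subtracting the median of genes that reach 1 FPKM in both groups.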
